A study of Mus musculus with 10 samples.

Results

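The genes described here are 10 markers of conventional dendritic cells (DCs) and of DC maturation: *Flt3*, *Zbtb46*, *Batf3*, *Dpp4*, *Cd209a*, *Ccl17*, *Ccl22*, *Ccr7*, *Fscn1* and *Il12b*. They were matched by name, each to 1 row of the deposited table of read counts, so that they are 10 of 55487 genes. These genes and the marker lists below were chosen with earlier results of these data known. Counts of them that passed the limits are thus a description only. The filter on low counts left 13740 genes for testing, among them 9 of the 10, and *Cd209a* did not pass it.

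The cells came from the spinal cords of 5 male C57BL/6 mice that carry a reporter allele, which makes ARG1+ cells produce yellow fluorescent protein (YFP). The study's methods give the age of its animals as 8 to 12 weeks. All 5 mice had experimental autoimmune encephalomyelitis (EAE), induced with a peptide of myelin oligodendrocyte glycoprotein in complete Freund's adjuvant together with pertussis toxin, and were taken at peak disease. Viable cells without CD3 and Ly6G and with CD45 and CX3CR1 were sorted by YFP, 200000 YFP+ (ARG1+) and 100000 YFP- (ARG1-) cells from each mouse, and each sort gave 1 library. Both groups thus share the reporter allele, the disease and the mice (m2, m6, m234, m235, m236). The gate names no DC marker and takes in myeloid cells of several kinds, and the study states that it does not separate CNS-associated macrophages from monocyte-derived cells precisely.

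The library totals were 28870482 to 33826355 in the 5 ARG1+ libraries. The ARG1- totals were 8396863 in m234 and 28212174 to 35455643 in the other 4 mice. With counts scaled to a library total of 1000000 (CPM), the leukocyte gene *Ptprc*, which encodes CD45, had 613 ± 34.1 CPM in the ARG1+ and 736 ± 70.7 CPM in the ARG1- libraries (SD, n = 5 each). *Cx3cr1* had 137 ± 65.5 and 286 ± 179 CPM in the same order (SD, n = 5 each). Of the limits given below, this difference passed that on the fold change but missed that on the adjusted p (log2 fold change −1.01, adjusted p 0.153 by edgeR). It was lower in all 5 mice, and with the mouse as a replicate block the difference was −0.97 (adjusted p 9.24e-05), past the limit on the adjusted p but not that on the fold change. The genes of the cells that the gate removes were near 0, with 19 and 14 counts of *Cd3d*, 15 and 18 of *Cd3e*, 13 and 24 of *Cd3g* and 9 and 5 of *Ly6g* summed over the ARG1+ and the ARG1- libraries.

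The ARG1- library of m234 stood apart in more than its depth. A list of 10 microglia genes summed to 3335 CPM there and to 847 to 1658 CPM in the other 4 ARG1- libraries. Values without it are given for several genes and lists.

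As background, conventional DCs are antigen-presenting cells that arise in the tissues from bone marrow precursors under the cytokine FLT3 ligand, and they prime T cells. Upon activation they mature, make chemokines and cytokines, and leave the tissue for the draining lymph node along ligands of CCR7. In EAE, antigen-presenting DCs in the CNS are known to restimulate T cells that recognize myelin.

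In all 5 mice, each of the 10 genes had a lower CPM among ARG1+ than among ARG1- cells, although for *Cd209a* this rests on few counts. Summed, they came to 86.4, 34.7, 75.0, 38.3 and 39.7 CPM in the ARG1- libraries of m2, m6, m234, m235 and m236, and to 13.6, 8.04, 13.9, 4.85 and 9.03 CPM in the ARG1+ libraries of the same mice. The sums of the groups did not overlap, and m2 and m234 were highest in both. In bulk libraries, fewer cells of a type and less RNA per cell cannot be told apart.

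Of the 9 tested genes, 7 were lower in ARG1+ cells by edgeR's quasi-likelihood test, with a false discovery rate (FDR) under 0.05 and a log2 fold change beyond 1 in size, and 0 were higher (0 at an unadjusted p under 0.05, 0 with DESeq2 and 0 with limma). Over all tested genes, 0.888% were lower and 0.560% higher by this rule. With no fold change limit 8 of the 9 passed, against 6.15% of all tested genes that were lower and 6.82% that were higher. The libraries of the groups did not overlap for 6 of the 10, *Flt3*, *Zbtb46*, *Dpp4*, *Ccl17*, *Ccl22* and *Ccr7*, against 7.61% of all tested genes with every ARG1+ library below every ARG1- library. *Flt3*, *Dpp4* and *Zbtb46*, with 0 ARG1+ libraries above 1 CPM, and *Il12b*, with 1, passed the filter through the ARG1- libraries. The filter thus favoured a lower level in ARG1+ cells for them, and these counts are a description only. Without the ARG1- library of m234 the count of 7 was again 7. With the mouse as a replicate block, 8 of the 9 passed both limits, against 1.55% of all tested genes that were lower.

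**Figure D1:**
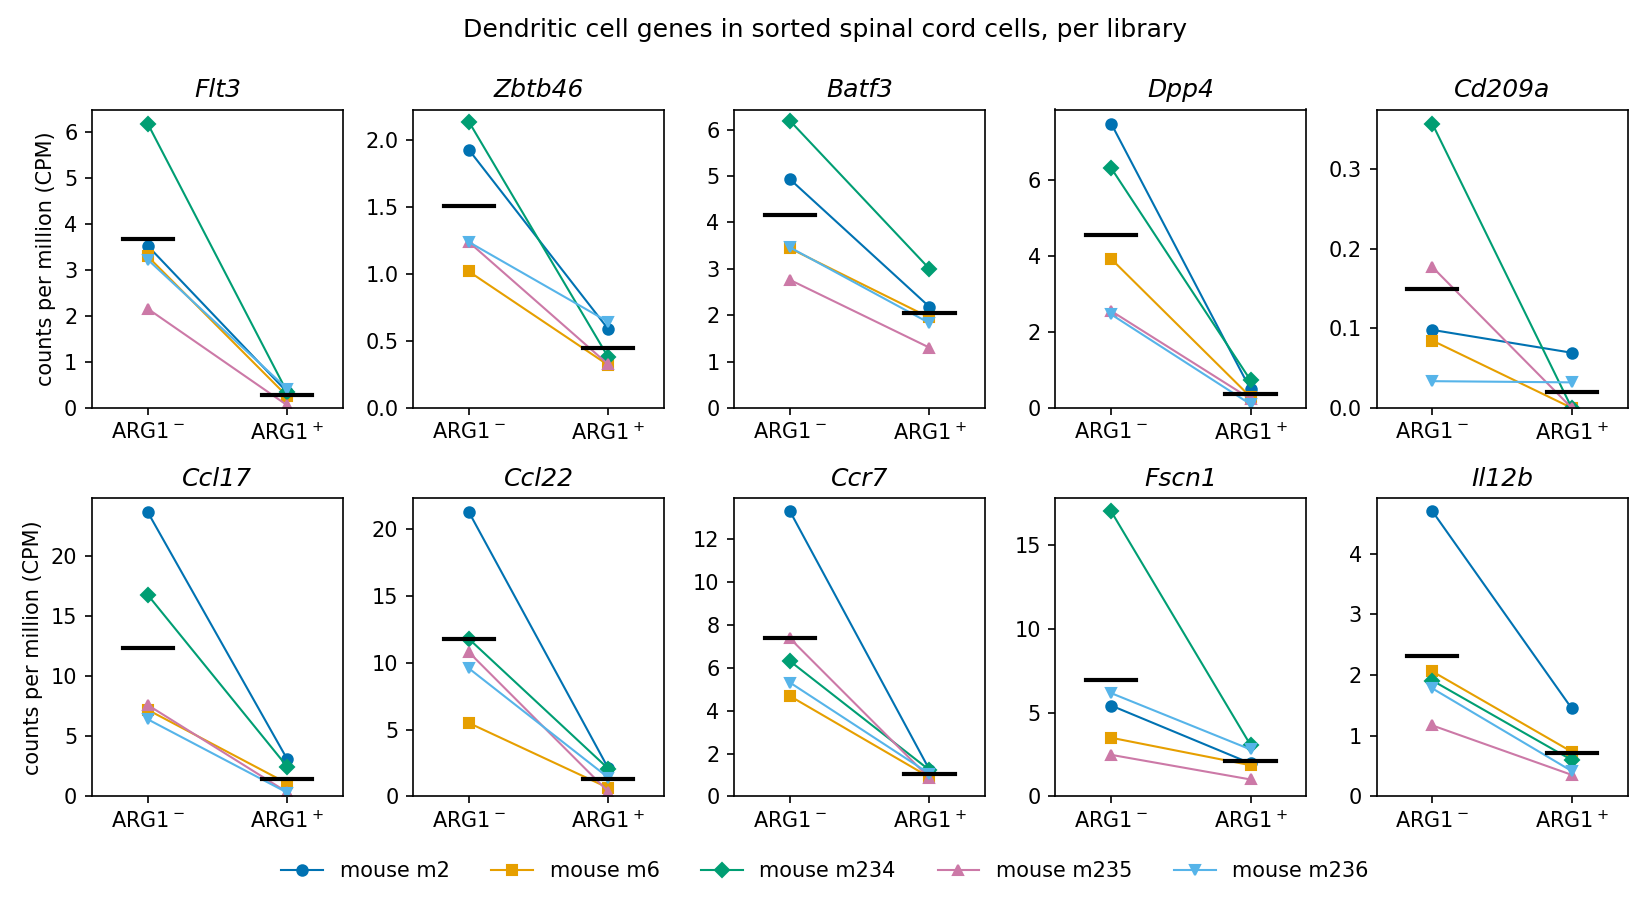
CPM (vertical axes, linear from 0, a scale for each gene) of the 10 genes in both libraries of the 5 mice, with a line joining the libraries of a mouse and a black bar at the mean of 5. All lines fall to the right, from 3.68 to 0.285 CPM on average for *Flt3*, and the ARG1- library of m234 is highest for *Fscn1* at 17.0 CPM.

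*Flt3* encodes the receptor tyrosine kinase for FLT3 ligand, on which DC development depends. It spans bases 147330741 to 147400489 of chromosome 5 (GRCm38, reverse strand). Its level was 3.53, 3.30, 6.19, 2.16 and 3.23 CPM in the ARG1- libraries of m2, m6, m234, m235 and m236, and 0.346, 0.256, 0.347, 0.0591 and 0.418 CPM in the ARG1+ libraries in the same order. The lowest ARG1- library, that of m235, lay above the highest ARG1+ library, that of m236. These levels rest on 434 counts over the ARG1- and 44 over the ARG1+ libraries. *Flt3* was 12-fold lower in ARG1+ cells (log2 fold change −3.59, standard error 0.375, FDR 2.40e-04). Within the mice the difference of log2 CPM ran from −4.88 in m235 to −2.90 in m236.

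The transcription factors of the lineage are *Zbtb46*, which marks conventional DCs and their committed precursors, and *Batf3*, which is required for type 1 conventional DCs (cDC1). *Zbtb46* (chromosome 2 from 181387762 to 181459426, reverse strand) was at 1.93, 1.02, 2.14, 1.2 and 1.2 CPM in the ARG1- libraries of m2, m6, m234, m235 and m236 and at 0.589, 0.320, 0.379, 0.325 and 0.643 CPM in the ARG1+ libraries. The groups did not overlap, and *Zbtb46* was 3.13-fold lower in ARG1+ cells (log2 fold change −1.65, standard error 0.288, FDR 0.00408).

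*Batf3* (chromosome 1 from 191097847 to 191108945, forward strand) was at 4.93, 3.44, 6.19, 2.76 and 3.46 CPM in the ARG1- libraries and at 2.18, 1.95, 3.0, 1.30 and 1.83 CPM in the ARG1+ libraries, in the same order of mice. The groups overlapped between mice, since the ARG1+ library of m234 lay above the ARG1- library of m235. Within every mouse *Batf3* was lower in ARG1+ cells, by a difference of log2 CPM of −1.17 to −0.81. The fitted difference was −0.93 (log2, standard error 0.249, FDR 0.0302), which passed the FDR but not the fold change limit. The replicate block gave −0.97 with an FDR of 3.13e-04. Without the block it missed the FDR limit without the ARG1- library of m2 (0.0742), without the ARG1+ library of m2 (0.0627), m6 (0.0680), m235 (0.0553) or m236 (0.0653), and without both libraries of m2 (0.133), m6 (0.0985) or m236 (0.0876). Without the ARG1- library of m235 or the ARG1+ library of m234 it passed both limits, at −1.04 and −1.11.

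Among the surface proteins, *Dpp4* encodes CD26, a serine peptidase of the cell membrane that is used as a marker of conventional DCs. *Dpp4* (chromosome 2 from 62330073 to 62412231, reverse strand) was at 7.48, 3.92, 6.31, 2.55 and 2.46 CPM in the ARG1- libraries of m2, m6, m234, m235 and m236 and at 0.485, 0.288, 0.726, 0.237 and 0.0964 CPM in the ARG1+ libraries. The ARG1- libraries of m2 and m234 were high and those of m235 and m236 low, and all 5 lay above the highest ARG1+ library. *Dpp4* was 11.7-fold lower in ARG1+ cells (log2 fold change −3.55, standard error 0.457, FDR 8.15e-04).

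*Cd209a*, a C-type lectin found on type 2 conventional DCs (cDC2) and on DCs that derive from monocytes, was barely detected. It had 3, 3, 3, 5 and 1 counts in the ARG1- libraries of m2, m6, m234, m235 and m236 and 2, 0, 0, 0 and 1 counts in the ARG1+ libraries. No library reached 1 CPM, and in m236 both libraries held 1 count. A 2-sided exact permutation test of log2 CPM with 0.5 counts added gave p = 0.0159 over 5 against 5 libraries, 0.0317 without the ARG1- library of m234, and 0.0571 without both libraries of m6, of m234 or of m235. Nothing is read from it, since the added counts alone make a gene with 0 counts in every library differ by −1.92 in m234, where the depths are unequal, and since it does not use the pairing by mouse. *Cd209a* (chromosome 8 from 3743397 to 3748984, reverse strand) belongs to a family of related lectin genes, and how the counting divided reads among them was not assessed.

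*Ccl17* and *Ccl22* encode the chemokines that bind CCR4, a receptor of regulatory and type 2 helper T cells. Both genes lie on the forward strand of chromosome 8, *Ccl22* from 94745590 to 94751699 and *Ccl17* from 94810453 to 94812036, with 58753 bases between them. *Ccl17* was at 23.7, 7.22, 16.8, 7.62 and 6.43 CPM in the ARG1- libraries of m2, m6, m234, m235 and m236 and at 3.12, 1.09, 2.49, 0.355 and 0.321 CPM in the ARG1+ libraries. The libraries of m2 and m234 were the highest in both groups. *Ccl17* was 8.08-fold lower in ARG1+ cells (log2 fold change −3.01, standard error 0.582, FDR 0.00681). Within the mice the difference of log2 CPM was −2.92, −2.71, −2.75, −4.37 and −4.25.

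*Ccl22* was at 21.3, 5.50, 11.8, 10.8 and 9.59 CPM in the ARG1- libraries and at 2.11, 0.640, 2.08, 0.355 and 1.41 CPM in the ARG1+ libraries, in the same order of mice. The ARG1- library of m2 was the highest and that of m6 the lowest, and the groups did not overlap. *Ccl22* was 8.69-fold lower in ARG1+ cells (log2 fold change −3.12, standard error 0.449, FDR 0.00143).

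*Ccr7* and *Fscn1* belong to migration. *Ccr7* encodes the chemokine receptor that guides mature DCs to lymph nodes. *Ccr7* (chromosome 11 from 99144196 to 99155077, reverse strand) was at 13.3, 4.68, 6.31, 7.37 and 5.31 CPM in the ARG1- libraries of m2, m6, m234, m235 and m236 and at 1.25, 0.896, 1.23, 0.857 and 1.06 CPM in the ARG1+ libraries. The ARG1+ libraries lay close to each other, with 1.06 ± 0.182 CPM, and the ARG1- libraries were spread more widely, with 7.39 ± 3.44 CPM (SD, n = 5 each). *Ccr7* was 6.80-fold lower in ARG1+ cells (log2 fold change −2.76, standard error 0.283, FDR 2.03e-04).

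*Fscn1* encodes fascin, which bundles actin filaments in the dendrites of mature DCs. *Fscn1* (chromosome 5 from 142960343 to 142973185, forward strand) was at 5.42, 3.50, 17.0, 2.48 and 6.16 CPM in the ARG1- libraries and at 1.97, 1.86, 3.06, 1.01 and 2.80 CPM in the ARG1+ libraries, in the same order of mice. The ARG1- library of m234 was far above the other 4, and it also had the highest sum of the microglia list. A link between them was not tested. The ARG1- library of m235 lay below the ARG1+ libraries of m234 and m236. The log2 fold change of *Fscn1* was −1.55 (standard error 0.474, FDR 0.0515), which missed the FDR limit. With the mouse as a replicate block it was −1.44 with an FDR of 5.88e-04, which passed both limits. Over the alternatives of test, library size, filter and block its FDR ran from 5.88e-04 to 0.0633. It also passed with DESeq2 (0.0190), with total counts as library sizes (0.0438), with no filter (0.0250), with ARG1- m6 (0.0498) or m235 (0.0282) omitted, and with mouse m234 (0.0456) or m235 (0.0489) omitted. Without the ARG1- library of m234 alone it was −0.99 (FDR 0.0644).

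*Il12b* encodes p40, the subunit that IL-12 and IL-23 share. *Il12b* (chromosome 11 from 44400063 to 44414033, forward strand) was at 4.70, 2.06, 1.91, 1.17 and 1.78 CPM in the ARG1- libraries of m2, m6, m234, m235 and m236 and at 1.45, 0.736, 0.600, 0.355 and 0.418 CPM in the ARG1+ libraries. The library of m2 was the highest and that of m235 the lowest in both groups, and the ARG1+ library of m2 lay above the ARG1- library of m235. *Il12b* was 3.22-fold lower in ARG1+ cells (log2 fold change −1.69, standard error 0.430, FDR 0.0251). *Il12b* missed the FDR limit without the ARG1- library of m2 (0.0614, with a log2 fold change of −1.25), with ARG1+ m6 (0.0552) or ARG1+ m236 (0.0579) omitted, and without both libraries of m6 (0.0928), m234 (0.0522) or m236 (0.0781).

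Leaving out each library or each mouse in turn changed no call of *Flt3* (log2 fold change −3.81 to −3.32), *Dpp4* (−3.96 to −3.27), *Zbtb46* (−1.87 to −1.49), *Ccl17* (−3.46 to −2.61), *Ccl22* (−3.36 to −2.79) or *Ccr7* (−2.90 to −2.44). These ranges include the omission of the ARG1- library of m234. That library was the highest of its group for *Flt3*, *Zbtb46*, *Batf3*, *Cd209a* and *Fscn1*, and the ARG1- library of m2 was the highest for *Dpp4*, *Ccl17*, *Ccl22*, *Ccr7* and *Il12b*.

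Levels of different genes were compared per length, as mean CPM per kilobase of exon. In ARG1- cells the order was *Ccl17* with 24 ± 14.8, *Ccl22* with 5.32 ± 2.63, *Batf3* with 5.19 ± 1.73, *Ccr7* with 3.74 ± 1.74, *Fscn1* with 2.59 ± 2.18, *Il12b* with 1.18 ± 0.698, *Flt3* with 1.01 ± 0.410, *Dpp4* with 0.863 ± 0.429, *Zbtb46* with 0.234 ± 0.0760 and *Cd209a* with 0.101 ± 0.0855 CPM per kilobase (SD, n = 5 each). *Ccl17* lay above *Ccl22* and *Dpp4* above *Zbtb46* with no overlap of the ARG1- libraries, while the other neighbours in this order overlapped. In ARG1+ cells *Ccl17* with 2.87 ± 2.47 and *Batf3* with 2.56 ± 0.774 CPM per kilobase were the highest, and *Flt3*, *Zbtb46* and *Dpp4* were at 0.0780 ± 0.0380, 0.0698 ± 0.0237 and 0.0696 ± 0.0464 (SD, n = 5 each). No exon of the 10 genes shares a base with an exon of another gene in the annotation used for these lengths.

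By the root mean square distance of the 5 within-mouse differences of log2 CPM, the 5 tested genes closest to *Flt3* were *Ccl22* (0.762), *Ccl17* (0.987), *Trp53i11* (1.05), *Dpp4* (1.11) and *Btla* (1.13), over 5 mice. Genes picked for this nearness are lower in ARG1+ cells by the way they were picked, so that no test is given for them here. *Ccr7* followed at place 8, *Zbtb46* at 32, *Il12b* at 42, *Fscn1* at 74 and *Batf3* at 204.

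Of 12 genes for ligands, receptors and cytokine subunits that work with these products, 7 were tested and 0 passed both limits or the FDR alone with edgeR without a block (0 at an unadjusted p under 0.05, and 0 past both limits with DESeq2 or limma). Their median log2 fold change was −0.15, where the median over all tested genes was −0.0022. *Flt3l*, the ligand of FLT3, had 1.52 ± 0.408 CPM in the ARG1+ and 2.08 ± 0.600 CPM in the ARG1- libraries (SD, n = 5 each), and its log2 fold change was −0.35 (FDR 0.343). *Il12a*, whose product p35 joins p40 in IL-12, had 4.25 ± 1.15 and 4.65 ± 1.35 CPM (SD, n = 5 each), and its log2 fold change was −0.10 (FDR 0.816). *Il23a*, whose product p19 joins p40 in IL-23, had 0.926 ± 0.439 and 1.03 ± 0.482 CPM (SD, n = 5 each), and its log2 fold change was −0.15 (FDR 0.820). For the receptor chains *Il12rb1* and *Il12rb2* the log2 fold changes were −0.25 (FDR 0.388) and 0.16 (FDR 0.601). With the mouse as a replicate block *Il12rb1* passed the FDR, at −0.24 (FDR 0.0115), but not the fold change limit. For *Ada* and *Icam2*, whose products bind human DPP4 and human DC-SIGN, they were −0.17 (FDR 0.668) and 0.22 (FDR 0.401). *Ccr4*, the receptor of CCL17 and CCL22, had 2 counts summed over the ARG1+ and 4 over the ARG1- libraries. The CCR7 ligand genes *Ccl19* and *Ccl21a* had 2 and 2 counts and 0 and 0 counts, *Il23r* had 10 and 3, and *Ackr4*, which takes up ligands of CCR7, had 1 and 0.

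Further DC genes were read from 5 lists. Of 25 genes of conventional DCs in general, 24 were found in the table and 22 were tested. At both limits 5 were lower and 0 higher with edgeR, DESeq2 and limma (2 higher at an unadjusted p under 0.05), and at the FDR alone 11 were lower and 0 higher, against 15 and 3 with the block for the mouse. The share of all tested genes past the FDR alone with the block is not given. Counts by that rule, here and for the other lists, are a description only. With ARG1- m234 omitted, both limits were passed by 4. The median log2 fold change was −0.38. *Btla*, an inhibitory receptor of lymphocytes and DCs (−2.64, standard error 0.376, FDR 0.00134), *Kmo*, an enzyme of tryptophan breakdown (−2.39, standard error 0.315, FDR 9.30e-04), *Kit*, the receptor for stem cell factor (−1.74, standard error 0.192, FDR 3.49e-04), and *Jaml*, an adhesion molecule of leukocytes (−1.24, standard error 0.215, FDR 0.00393), were lower in all 5 mice. *Btla* and *Kmo* had 0 ARG1+ libraries above 1 CPM. They passed the filter through the ARG1- libraries, which favoured a lower level in ARG1+ cells. *Csf2rb*, a receptor chain for GM-CSF and the most abundant of the list, had 820 ± 54.6 CPM in the ARG1+ and 862 ± 85.0 CPM in the ARG1- libraries (SD, n = 5 each), and its log2 fold change was −0.034 (FDR 0.812).

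Of 20 cDC1 genes, 14 were tested, and 1 was lower and 0 higher at both limits (1 higher at an unadjusted p under 0.05, 0 with DESeq2 or limma). At the FDR alone 3 were lower and 1 higher (7 and 1 with the block), and the median log2 fold change was −0.26. The gene past both limits was *Tlr11*, a receptor for profilin of protozoa, with 0.528 ± 0.141 CPM in the ARG1+ and 1.2 ± 0.596 CPM in the ARG1- libraries (SD, n = 5 each; log2 fold change −1.07, FDR 0.0391). It passed the filter through 3 ARG1- libraries, with 0 ARG1+ libraries above 1 CPM, which favoured a lower level in ARG1+ cells. It missed the FDR with no filter on low counts (0.0594), and with a library or mouse left out it passed both limits only when ARG1- m235, ARG1- m236 or ARG1+ m234 was the one omitted. A replicate block for the mouse gave 3 lower genes of the list at both limits. *Naaa*, a lysosomal amidase (−0.54, FDR 0.00133), and the chemokine gene *Cxcl9* (−0.69, FDR 0.0383) were lower and *Cd24a* (0.75, FDR 0.00914) was higher in ARG1+ cells, within the fold change limit. *Irf8*, a transcription factor of cDC1 and of monocytes and the most abundant of the list, had a log2 fold change of −0.28 (FDR 0.0905, and 3.03e-04 with the block). *Cd207* had 0 counts.

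Of 22 cDC2 genes, 14 were tested, and 0 passed both limits with edgeR or limma (1 lower with DESeq2, and 5 lower and 2 higher at an unadjusted p under 0.05). At the FDR alone 3 were lower and 1 higher (5 and 5 with the block), and the median log2 fold change was −0.082. *Irf4*, a transcription factor of cDC2, was lower within the fold change limit (−0.98, standard error 0.243, FDR 0.0227). Both limits were passed with total counts as library sizes (−1.02), with ARG1- m6 (−1.03), m235 (−1.06) or m236 (−1.08) omitted, and with ARG1+ m2 (−1.08) or m234 (−1.10) omitted. *Relb* (−0.28, FDR 0.0392) and *Rbpj* (−0.27, FDR 0.00636) were lower and *Cd1d1* (0.70, FDR 0.0393) was higher, within the fold change limit. In other edgeR fits the list had 1 lower gene at both limits with the block, 2 with no filter on low counts, 1 with filterByExpr, 1 with total counts as library sizes, 2 with ARG1- m235 omitted and 1 with ARG1- m6, ARG1- m236, ARG1+ m2, ARG1+ m234 or mouse m235 omitted. *Klf4*, the most abundant of the list, had a log2 fold change of 0.14 (FDR 0.377, and 0.0363 with the block).

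Of 36 genes of mature and migratory DCs, 30 were tested, 2 were lower and 1 higher at both limits, and the median log2 fold change was −0.22. At the FDR alone 7 were lower and 1 higher, and 15 and 4 with the block. *Il4i1*, a secreted amino acid oxidase, had 0.380 ± 0.179 CPM in the ARG1+ and 2.04 ± 1.51 CPM in the ARG1- libraries (SD, n = 5 each; log2 fold change −2.33, FDR 0.0138). It passed the filter through 3 ARG1- libraries, with 0 ARG1+ libraries above 1 CPM, which favoured a lower level in ARG1+ cells. It failed the filter once m2, m234 or m236 was omitted, either as the ARG1- library alone or as the whole mouse. *Cd83*, a surface marker of mature DCs, had 88.5 ± 28.3 and 205 ± 110 CPM (SD, n = 5 each; log2 fold change −1.16, FDR 0.0307). With a library or mouse left out, *Cd83* passed both limits only when ARG1- m6, ARG1- m235, ARG1- m236, ARG1+ m234 or mouse m235 was the one omitted, and its value went from −1.35 to −0.79. The list had 0 lower genes when ARG1- m2, ARG1- m234, mouse m2, mouse m234 or mouse m236 was omitted, and 2 higher when ARG1- m235 was. *Apol7c* was higher in ARG1+ cells (1.32, FDR 0.0114) but not without both libraries of m2 (0.0545) or m6 (0.0783). With 0 ARG1- libraries above 1 CPM it passed the filter through the ARG1+ libraries, which favoured a higher level there. The costimulatory gene *Cd40* was lower within the fold change limit (−0.84, FDR 0.00690), and *Cxcl16*, the most abundant of the list, had a log2 fold change of −0.034 (FDR 0.803).

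Of 18 genes of plasmacytoid DCs, 9 were tested, and 0 passed both limits with edgeR (2 lower with DESeq2, 1 with limma, and 4 lower and 1 higher at an unadjusted p under 0.05), with a median log2 fold change of −0.41. *Tlr9* was lower (−0.80, FDR 0.00553) and *Tlr7* higher (0.33, FDR 0.0375) within the fold change limit. The block gave 2 lower genes at both limits, and 6 lower and 1 higher at the FDR alone. No filter on low counts gave 1 at both limits, and the omission of ARG1- m235, of ARG1+ m236 or of mouse m236 gave 1. *Irf7*, the most abundant of the list, had a log2 fold change of −0.41 (FDR 0.301, and 0.00115 with the block).

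**Figure D2:**
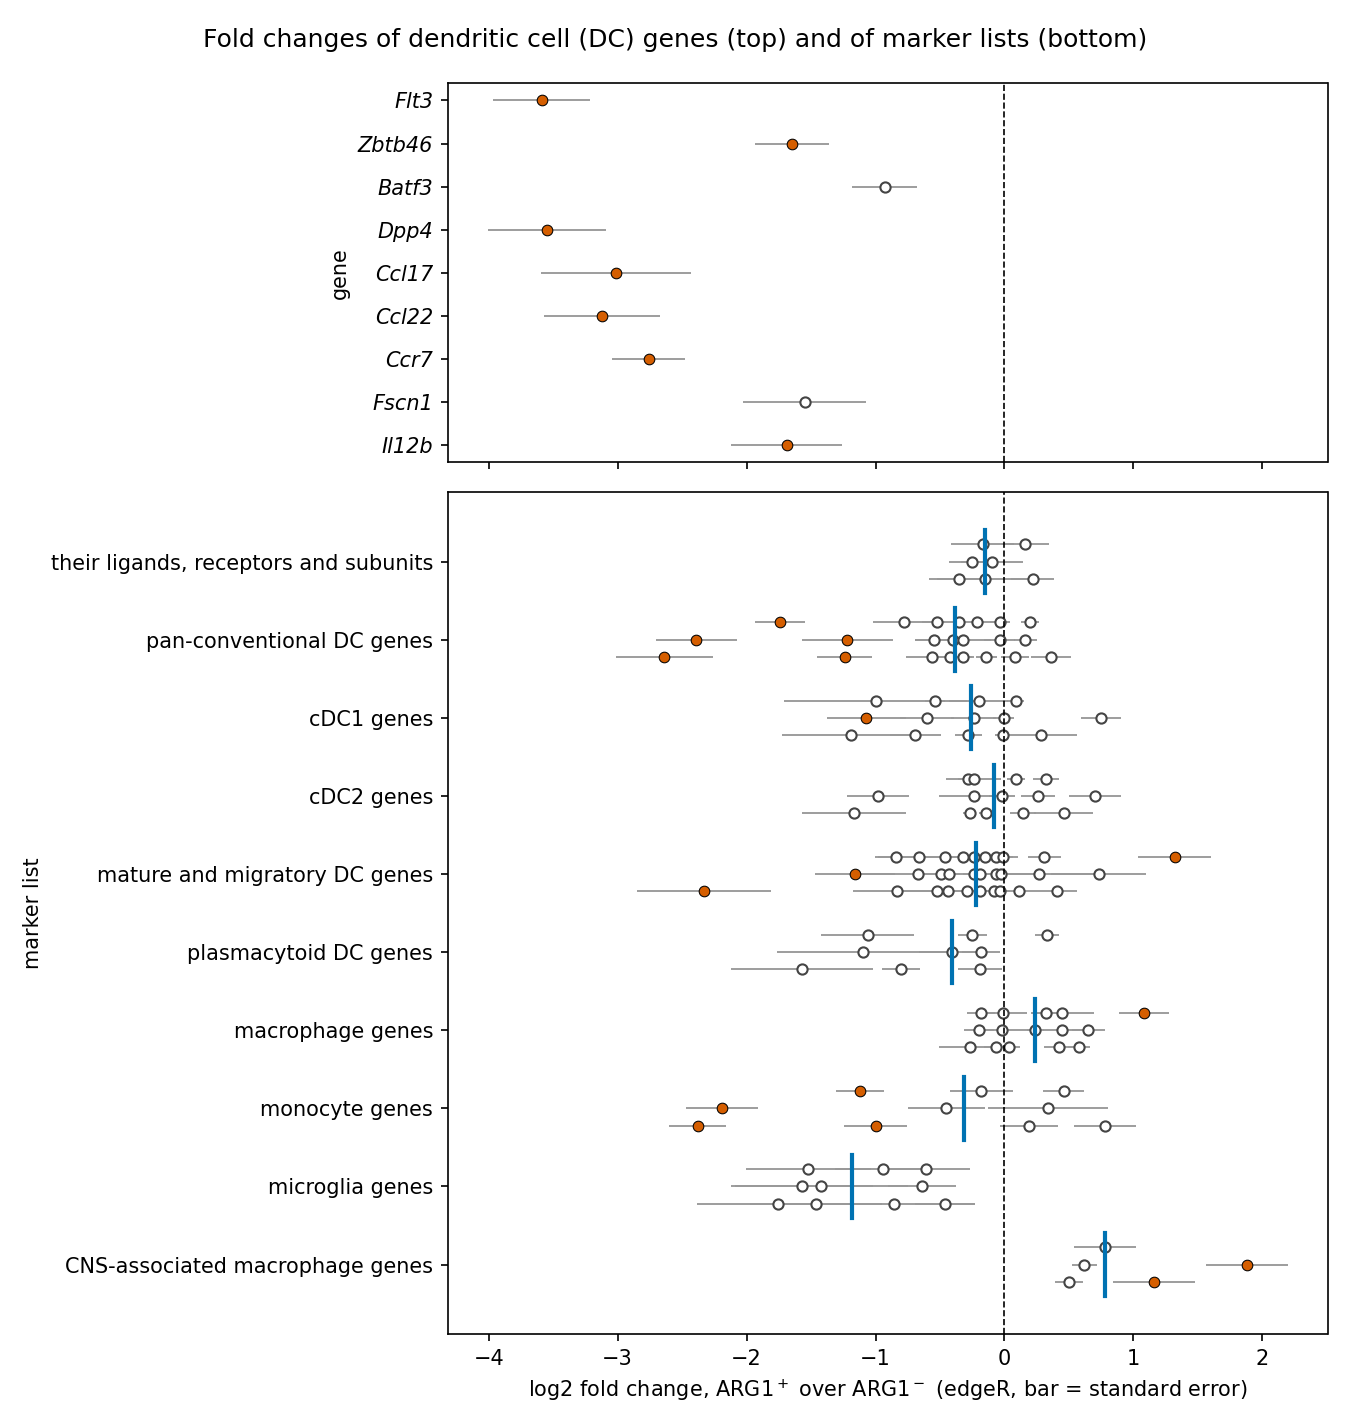
Log2 fold change of ARG1+ over ARG1- cells (horizontal axis) with its standard error for the 9 tested DC genes (top) and for every tested gene of 10 other lists (bottom), with filled points for genes past both limits, a blue line at each list median and a dashed line at the median of all 13740 tested genes (−0.0022). The median of the conventional DC list lies at −0.38, and *Flt3* lies at −3.59.

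Markers of other cell types were read beside the 10 genes, and their part in the result was not tested. Genes in 2 lists are *F13a1* (monocytes and CNS-associated macrophages), *Siglech* (plasmacytoid DCs and microglia), *Cd3d*, *Cd3e* and *Cd3g* (sort gate and T cells) and *Ly6g* (sort gate and neutrophils). Without the ARG1- library of m234 the list medians became −0.50 for microglia, −0.62 for B cells, −0.20 for plasmacytoid DCs, −0.13 for cDC1 and 0.12, with the opposite sign, for neural and endothelial genes. With the block the FDR alone was passed by 5 lower and 4 higher monocyte genes, 2 and 8 macrophage genes, 8 and 0 microglia genes, 0 and 5 genes of CNS-associated macrophages, 2 and 1 B cell, 4 and 1 plasma cell, 1 and 0 T cell, 2 and 2 NK and innate lymphoid cell, 2 and 2 neutrophil, 1 and 0 basophil and mast cell, and 1 and 1 neural and endothelial genes. These counts with the block stand without the share of all tested genes by the same rule, and are a description only. Of 11 monocyte genes, 10 were tested, 4 were lower and 0 higher at both limits (2 higher at an unadjusted p under 0.05, 0 with DESeq2 or limma), with a median of −0.31. Among the 4, *Plac8* (−2.19, FDR 7.45e-04), *Ccr2* (−1.12, FDR 0.00339) and *Vcan* (−1.0, FDR 0.0214) were lower in all 5 mice. *Vcan* lay at the fold change limit, fell within it with no filter (−0.99), and with a library or mouse left out passed both limits only when ARG1- m234, ARG1- m236, ARG1+ m2, ARG1+ m235, mouse m235 or mouse m236 was the one omitted. The list summed to 13689, 12709, 9080, 13004 and 14610 CPM in the ARG1- libraries of m2, m6, m234, m235 and m236 and to 17054, 14392, 13001, 14327 and 16843 CPM in the ARG1+ libraries. Its most abundant gene, *Fn1*, had 6788 ± 1480 CPM in the ARG1- and 9078 ± 1916 CPM in the ARG1+ libraries (SD, n = 5 each; log2 fold change 0.46, FDR 0.0776, and 7.93e-04 with the block).

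All 10 microglia genes were tested and had a log2 fold change below 0, with a median of −1.18, and 0 passed both limits with edgeR or limma (2 lower with DESeq2, and 6 lower at an unadjusted p under 0.05). In other edgeR fits 5 were lower at both limits with the block, 4 with no filter on low counts, 1 with total counts as library sizes, 5 with ARG1- m235 omitted and 2 with mouse m235 omitted. The list summed to 1658, 1143, 3335, 847 and 1304 CPM in the ARG1- libraries of m2, m6, m234, m235 and m236 and to 1014, 1042, 1089, 757 and 1185 CPM in the ARG1+ libraries.

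Of 15 macrophage genes, all tested, 1 was higher and 0 lower at both limits (0 lower at an unadjusted p under 0.05, with DESeq2 or with limma), with a median of 0.24, and 5 were higher at the FDR alone. *Gpnmb* was higher (1.08, FDR 0.00466) but within the fold change limit without the ARG1- library of m234 (0.96) or the ARG1+ library of m236 (0.99), and *Lyz2* (0.65, FDR 0.00764), *Cd68* (0.58, FDR 0.00155) and *Mertk* (0.42, FDR 0.0327) were higher within it. *Apoe*, the most abundant, had a log2 fold change of 0.45 (FDR 0.238, and 6.32e-04 with the block), and the list summed to 26779 to 38392 CPM in the ARG1- and 30967 to 51240 CPM in the ARG1+ libraries. Of 9 genes of CNS-associated macrophages, 5 were tested, with a median of 0.78, and 2 were higher at both limits, *Pf4* (1.88, FDR 0.00324) and *Mrc1* (1.16, FDR 0.0320). With a library or mouse left out, *Mrc1* passed both limits only when ARG1- m2, ARG1+ m234, ARG1+ m235, mouse m2 or mouse m234 was the one omitted, and it was 1.05 (FDR 0.0534) with ARG1- m234 omitted. *Stab1* (0.62, FDR 0.00195) and *Ms4a7* (0.50, FDR 0.0103) were higher within the fold change limit. *F13a1*, the most abundant of that list, had a log2 fold change of 0.78 (FDR 0.0511, and 1.62e-05 with the block), and the list summed to 879 to 1495 CPM in the ARG1- and 1574 to 2441 CPM in the ARG1+ libraries.

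Of 14 B cell genes, 4 were tested, with a median of −0.91. *Igkc* (−3.14, FDR 0.00914) and *Ighm* (−1.91, FDR 0.00300) were lower and *Cd22*, the most abundant, was higher (1.07, FDR 4.78e-04, but 0.99 without both libraries of m2). *Igkc*, with 2 ARG1+ libraries above 1 CPM, passed the filter through the ARG1- libraries, as did *Jchain* with 1. This favoured a lower level in ARG1+ cells for both. *Fcer2a* and *Cr2* had 0 counts, and the list summed to 51.6 to 103 CPM in the ARG1- and 53.1 to 78.8 CPM in the ARG1+ libraries. Of 12 plasma cell genes, 5 were tested, with a median of −0.26, and *Igha* (−3.27, FDR 0.0193) and *Jchain* (−2.87, FDR 0.0184) were lower at both limits, where no filter on low counts gave 4 lower genes. *Igha* missed the FDR with DESeq2 (0.0801) and without both libraries of m2 (0.0537) or m235 (0.0509). *Sdc1*, the most abundant, was higher within the fold change limit (0.70, FDR 0.00239), and the list summed to 418 to 489 CPM in the ARG1- and 443 to 492 CPM in the ARG1+ libraries.

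Of 15 genes of NK and innate lymphoid cells, 4 were tested, with a median of −0.79, and *Il2ra* (−3.10, FDR 7.51e-04) and *Klrk1* (−1.86, FDR 3.50e-04) were lower at both limits. *Il7r*, the most abundant, was higher within the fold change limit (0.90, FDR 0.00961) and past it without the ARG1- library of m235 (1.07). *Il2ra*, with 0 ARG1+ libraries above 1 CPM, passed the filter through the ARG1- libraries, which favoured a lower level in ARG1+ cells. The list summed to 140 to 205 CPM in the ARG1- and 203 to 341 CPM in the ARG1+ libraries. Of 12 neutrophil genes, 4 were tested, with a median of −0.055, and *S100a9* was lower at both limits (−3.40, FDR 0.00977), where no filter or filterByExpr gave 2 lower genes. *S100a9* had 0 ARG1+ libraries above 1 CPM, so that the filter favoured a lower level in ARG1+ cells. It did not pass the filter on low counts once m2, m6 or m235 was omitted, either as the ARG1- library alone or as the whole mouse. *Csf3r*, the most abundant, had a log2 fold change of −0.34 (FDR 0.175, and 0.00329 with the block), and the list summed to 272 to 375 CPM in the ARG1- and 295 to 446 CPM in the ARG1+ libraries. Of 15 T cell genes, 3 were tested, with a median of −0.47, and 0 passed both limits or the FDR alone with edgeR without the block (0 at an unadjusted p under 0.05, and 0 past both limits with DESeq2 or limma). *Lat* was the most abundant (−0.44, FDR 0.317), and the list summed to 3.12 to 7.47 CPM in the ARG1- and 2.87 to 5.62 CPM in the ARG1+ libraries. Of 10 genes of basophils and mast cells, 7 had 0 counts, among them *Mcpt8*, *Cpa3* and *Fcer1a*, and *Hdc* was the 1 tested (−0.78, FDR 0.0113), with list sums of 10.5 to 12.6 CPM in the ARG1- and 5.20 to 9.69 CPM in the ARG1+ libraries. Of 14 neural and endothelial genes, 7 were tested, with a median of −0.17, and 0 passed both limits with edgeR, DESeq2 or limma (1 lower and 1 higher at an unadjusted p under 0.05). *Flt1* was the most abundant (−0.47, FDR 0.0370), and the list summed to 243 to 289 CPM in the ARG1- and 203 to 287 CPM in the ARG1+ libraries.

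Promoter windows were at hand for 9 of the 10 genes (RefSeq, GRCm38.p6), and not for *Ccr7*. They are shown for the 4 tested genes with a fitted log2 fold change beyond −3, all of which were lower in every mouse. Each run gives the bases before the transcription start, read 5′ to 3′ on the strand of the gene, from chr5:147400490-147400739 for *Flt3*, chr2:62412232-62412481 for *Dpp4*, chr8:94745434-94745589 for *Ccl22* and chr8:94810203-94810452 for *Ccl17*. The run of *Ccl22* holds 156 bases, since it ends where the count table starts the gene, within the RefSeq window of 250. Capitals mark GAGGAA or its reverse complement, a core that the myeloid factor PU.1 binds. This spelling was chosen for the capitals after the matches of 16 spellings had been seen, and it was found in *Dpp4* and *Ccl17* and not in the runs of *Flt3* and *Ccl22*.
Flt3: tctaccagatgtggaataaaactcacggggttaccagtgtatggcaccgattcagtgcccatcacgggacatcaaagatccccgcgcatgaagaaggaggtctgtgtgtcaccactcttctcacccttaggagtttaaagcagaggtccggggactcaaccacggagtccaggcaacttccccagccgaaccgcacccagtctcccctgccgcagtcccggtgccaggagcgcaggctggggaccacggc
Dpp4: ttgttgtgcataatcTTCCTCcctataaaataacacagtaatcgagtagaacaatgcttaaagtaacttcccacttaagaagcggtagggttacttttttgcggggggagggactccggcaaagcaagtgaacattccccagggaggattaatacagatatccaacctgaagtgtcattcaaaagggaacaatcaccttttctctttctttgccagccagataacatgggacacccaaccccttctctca
Ccl22: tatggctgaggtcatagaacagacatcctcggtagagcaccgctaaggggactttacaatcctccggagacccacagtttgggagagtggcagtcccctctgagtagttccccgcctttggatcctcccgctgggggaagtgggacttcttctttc
Ccl17: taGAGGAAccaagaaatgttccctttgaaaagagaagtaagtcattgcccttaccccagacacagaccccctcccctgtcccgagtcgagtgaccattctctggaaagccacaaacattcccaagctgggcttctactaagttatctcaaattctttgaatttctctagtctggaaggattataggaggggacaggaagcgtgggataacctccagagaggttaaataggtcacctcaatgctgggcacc

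The 16 spellings were searched on both strands of the 250 bases before the RefSeq start, and 8 of them matched a window of at least 1 of the 9 genes. GAGGAA matched the windows of *Dpp4*, *Batf3*, *Ccl17* and *Il12b* and 23.3% of all 32851 windows of the same length. The longer spellings that contain it were AGAGGAA, which matched *Ccl17* and *Il12b* and 8.55% of all windows, and GAGGAAGT, which matched none of the 9 and 2.44% of all. The AP-1 motifs TGANTCA and TGACTCA, which overlap, matched *Zbtb46* and 6.75% and 4.46% of all windows. The STAT motif TTCNNNGAA matched *Batf3* and *Ccl17* and 7.02% of all windows. Of the interferon response motifs, a pair of GAAA parted by 2 bases, searched in both orientations as 2 spellings, matched *Dpp4* and 2.98% of all windows, GAANNGAAA matched *Cd209a* and 6.31%, and GGAA and TGAAA parted by 1 base matched none of the 9 and 0.594%. The 6 overlapping NF-κB spellings matched none of the 9. They were GGGNNNTCC with 15.2% of all windows, GGGNNTTCC with 4.98%, GGGAATTCC with 0.21%, GGG and TTCC parted by 3 bases with 4.65%, GGG and TTTCC parted by 2 bases with 1.41%, and GGGA and TTTCC parted by 1 base with 0.356%. The search used the whole RefSeq windows, of which those of *Zbtb46* and *Batf3* lie inside the gene as the count table bounds it, and those of *Ccl22* and *Fscn1* reach into it.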

How the data were processed

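Deposited were read counts per Ensembl gene of 10 bulk RNA-seq libraries, 5 ARG1+ and 5 ARG1-, as whole numbers without normalization. The authors aligned single-end reads to GRCm38 with STAR 2.7.10b and counted them on the basic Ensembl annotation of release 100 with summarizeOverlaps in Union mode. The use of strand in counting is not given by these sources. In the smallest library 1 CPM is 8.40 counts.

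The filter kept genes that exceeded 1 CPM in 3 or more libraries, and edgeR 4.0.16 tested them (quasi-likelihood test, TMM library sizes, Benjamini-Hochberg adjustment over all tested genes, R 4.3.3). Standard errors were derived from the test's F statistic. Alternatives used DESeq2 1.42.0, limma-trend (limma 3.58.1), other library sizes and filters, no fold change limit, a replicate block for the mouse (*Fscn1* −1.44 in place of −1.55), and the omission of each library or each mouse. Libraries of the same mouse were paired: their residuals from the group means correlated at 0.361 to 0.664 across genes, against −0.367 to 0.0675 between mice. Exon lengths came from GENCODE M21.

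The members and the 18 marker lists were chosen with earlier results of these data known. Named are the 10 members, all their partners, the gate genes, the 5 genes closest to *Flt3* and, of each other list, the most abundant gene and up to 4 with the largest change at an FDR below 0.05. Genes named for a count of 0, and *Siglech*, were chosen after their values were seen. Some genes that the rule names are not reported here. The promoter motifs were also chosen after the counts were read.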

Additional observations from a re-analysis of the deposited data

Results flagged for a closer look

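Of 22 groups of 5 libraries (the total count and the CPM of the 10 genes in each group), 3 held a library far from the other 4. For a group of independent, normally distributed values chance gives about 1 in 20. The groups share libraries and mice, so that this rate is a rough guide only. The ARG1- library of m234 had a total of 8396863 counts, against 28212174 to 35455643 in the other ARG1- libraries. The same library had 17.0 CPM of *Fscn1*, against 2.48 to 6.16 CPM. The ARG1- library of m2 had 4.70 CPM of *Il12b*, against 1.17 to 2.06 CPM.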

How the results depend on the processing

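Of the 10 genes, 7 were lower at both limits. The count was 7 or 8 under the 8 alternatives of test, library size, filter, fold change limit and block, and 6 to 9 with a library or mouse left out. Over all tested genes, 77 were higher, and 937 with no fold change limit. The 122 lower genes became 186 with DESeq2, 190 with no filter, 213 with the mouse as a replicate block and 845 with no fold change limit. With a library or mouse left out, 53 to 87 genes were higher and 68 to 168 lower, with 68 lower without both libraries of m2, 76 without those of m6 and 168 without the ARG1- library of m235. Dropping the fold change limit lets more genes be called by construction, and the cause of the other shifts was not tested. Among the 9 tested genes, 67 of 72 values under the 8 alternatives kept their direction and side of the limits. The 5 others gained a call, 4 of *Fscn1* (DESeq2, total counts, no filter, block) and 1 of *Batf3* (no fold change limit), and the block changed no other call among these 9. Of 512 such values of other named genes, 489 kept both, 3 lost and 20 gained a call, all 20 but 1 because the fold change limit was dropped, and 0 turned direction with a call. Depth limits *Cd209a*, for whose 18 counts no size of difference is given.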
